A study of Mus musculus with 24 samples.

Results

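The small (40S) subunit of the ribosome is built from 18S ribosomal RNA and a set of small subunit proteins, most of them named Rps. It binds the mRNA, holds the decoding centre and joins the large (60S) subunit to form the 80S ribosome. The mRNAs of ribosomal proteins are among the most abundant of any dividing cell, and many begin with a C followed by a run of pyrimidines, the 5′ terminal oligopyrimidine tract through which mTOR signalling controls their translation. Rsl24d1, the gene depleted in these experiments, encodes a factor that assembles the 60S subunit and not the 40S subunit.

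A set of 30 genes of the small subunit was read, as the rows of the deposited table that carry their symbols and with pseudogene rows left out. All 30 were present among the 54242 rows, and all 30 passed the filter on low values (log2(TPM + 1) averaging 0.5 or more across the 24 libraries) that left 16447 genes to test. The set holds Rpsa, Fau, Rack1 and 27 genes named Rps. It leaves out 4 other small subunit protein genes.

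RNA-seq had been made from mouse CGR8 embryonic stem cells (ESCs), a line that is kept undifferentiated by serum and the cytokine LIF, in 24 libraries, 3 for each of 8 groups. Cells received a pool of non-targeting siRNAs (si-CTL) or of siRNAs to Rsl24d1 (si-Rsl24d1). They were collected as ESCs in serum and LIF (day 0) or after 4 days in 10 nM retinoic acid (RA, day 4), each without rescue (no doxycycline) or with rescue (doxycycline to express ectopic Rsl24d1). The paper's methods describe the rescue line as puromycin-selected cells with a piggyBac transgene of the Rsl24d1 open reading frame, whereas the labels give the cells without doxycycline an empty vector, so doxycycline, the transgene and the vector cannot be told apart between rescued and unrescued groups. The labels give both 72 h and 48 h after transfection for day 0, and the sources conflict on whether LIF was present at day 4. Values are log2(TPM + 1), where TPM is a transcript abundance that corrects for transcript length and sums to the same total in every library. Read depth is unknown. A TPM is a share of the library's RNA, so fewer cells of one type and less RNA per cell cannot be told apart.

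At day 0 without rescue Rsl24d1 was at 141 TPM in si-CTL and 35.7 TPM in si-Rsl24d1 cells (log2 fold change -1.95, SE 0.07, limma adjusted p = 3.2e-14). At day 4 it was at 97.9 and 95.1 TPM (log2 fold change -0.04, adjusted p = 0.66 from limma), so the libraries labelled si-Rsl24d1 carried no measured depletion at that time. With rescue at day 0 Rsl24d1 was still lower in si-Rsl24d1 than in si-CTL cells (log2 fold change -0.50, SE 0.07, adjusted p = 2.2e-05 from limma). Rescued cells at day 0 lay above unrescued cells by 1.55 under si-Rsl24d1 (adjusted p = 7.6e-11 from limma) and by 0.10 under si-CTL (adjusted p = 0.29 from limma). Of 10 pluripotency markers 0 were at 0 in any group, and in si-CTL cells without rescue 8 fell and 2 rose from day 0 to day 4, while their summed TPM went from 5866 to 6047 up to 7222 to 7418. The RA target markers summed to 22.7 to 27.5 TPM at day 0 and to 57.1 to 79.8 TPM at day 4. The 8 fibroblast and mesenchyme markers summed to 39.3 to 78.5 TPM at day 0, and at day 4 without rescue to at most 414 TPM in si-CTL and at least 808 TPM in si-Rsl24d1 libraries.

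The pyrimidine tract, found at the annotated start of part of these genes, is shown first, since it is the sequence feature for which ribosomal protein mRNAs are known. RefSeq (GRCm38.p6) gave a start for 26 of the 30 genes. A C followed by at least 4 pyrimidines (C or T) at the annotated first base was found in 8 of these 26 (30.8%), in 7 of 36 large subunit genes with a start (19.4%) and in 813 of 27025 genes in all (3.01%). The search was made on the transcribed strand at this base only, so a tract that begins at a neighbouring base was not counted. The 8 were Rps6, Rps10, Rps15a, Rps18, Rps21, Rps27, Fau and Rack1. In the 50 bases below, 30 lie before the annotated start and 20 after it, and the capitals mark the tract. Fau has the longest tract of the 8 (13 bases) and Rps21 the shortest (5 bases). Rps27l, which has 2 annotated starts, has no tract that begins at either annotated base and was not counted. In the window shown, however, its annotated first base is a g, and the next bases are cctct, a C followed by 4 pyrimidines. The search therefore does not show that Rps27l lacks a tract.
Fau, chr19:6057917-6057966, plus strand: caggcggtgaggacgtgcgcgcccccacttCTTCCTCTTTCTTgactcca
Rack1, chr11:48800330-48800379, plus strand: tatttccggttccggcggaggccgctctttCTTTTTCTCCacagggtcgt
Rps6, chr4:86857348-86857397, minus strand: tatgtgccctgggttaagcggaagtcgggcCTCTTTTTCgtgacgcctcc
Rps21, chr2:180257349-180257398, plus strand: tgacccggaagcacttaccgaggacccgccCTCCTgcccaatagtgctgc
Rps27l, chr9:66946056-66946105, plus strand: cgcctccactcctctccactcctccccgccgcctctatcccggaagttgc

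Together the 30 mRNAs took at most 8.46% of all TPM. The sum was lowest in si-CTL cells at day 0 without rescue, at 62018, 65733 and 67519 TPM in the 3 libraries, and highest in si-CTL cells at day 4 without rescue, at 83998, 84639 and 81997 TPM. Under si-Rsl24d1, again unrescued, it was 71621, 71306 and 75055 TPM at day 0 and 82473, 71867 and 69993 TPM at day 4. The first of these day 4 libraries lay above the other two by more than they differed from each other. With rescue the sums at day 0 were 69677, 72798 and 75348 TPM in si-CTL and 80240, 79477 and 71214 TPM in si-Rsl24d1 cells, of which the last stood below the other two. At day 4 with rescue all 6 libraries lay between 71933 and 76163 TPM, and the groups overlapped.

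**Figure D1:**
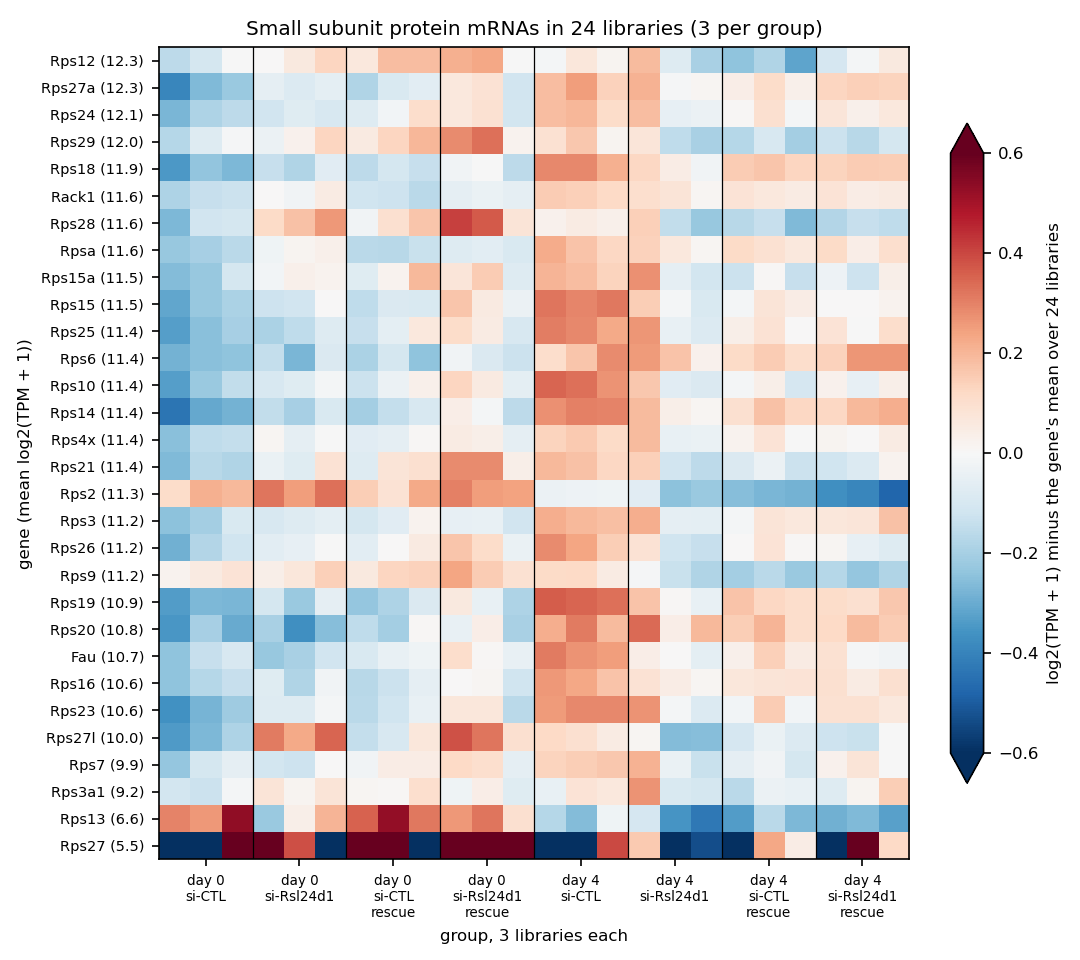
Each row is 1 small subunit gene, ordered by its mean log2(TPM + 1), which is given in parentheses, and each column is 1 of 24 libraries, 3 per group, with vertical lines between groups. Colour is the library's log2(TPM + 1) minus the gene's mean over all libraries, with values beyond 0.6 in either direction drawn at the end of the scale. Most genes are lowest in si-CTL cells at day 0 and highest in si-CTL cells at day 4, both without rescue, and Rps27 varies most between libraries of 1 group.

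By level, 25 of the 30 had a mean of at least 10 on the log2(TPM + 1) scale. Rps12, a protein of the beak of the 40S head, was the highest (12.28), followed by Rps27a (12.26), which is made as a fusion to ubiquitin, and by Rps24 (12.12). The 5 genes below 10 were Rps27l (9.97), Rps7 (9.89), Rps3a1 (9.19), Rps13 (6.60) and Rps27 (5.55). In si-CTL cells at day 0 without rescue, the 3 libraries of a gene overlapped those of the next gene in the order for 20 of 29 neighbouring pairs. The 9 pairs without overlap included Rps12 above Rps27a, Rps27l above Rps3a1, Rps3a1 above Rps13 and Rps13 above Rps27. The spread between libraries of a group was small for most genes (median SD 0.08). Rack1, the scaffold protein of the 40S head, had the smallest (0.03) and Rps13 the next to largest (0.14), whereas Rps27 had 1.07.

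Rps13 and Rps27 were also the genes whose rows held the smallest share of the TPM listed for the gene and rows of near-identical sequence. Ribosomal protein genes have many processed copies in the genome. The coding sequence of each gene was aligned to all gencode vM21 transcripts, and 278 other rows of the table had a transcript with at least 90% identity over at least 70% of it, of which 262 are annotated as processed pseudogenes and 3 as protein coding. These rows held 1.65% to 2.46% of all TPM. For 20 of the 30 genes the gene's own row held at least 90% of the TPM of the gene and its near-identical rows, for 5 it held 50% to 90%, and for 5 less than 50%. The 5 were Rps27 (1.71%), Rps13 (3.84%), Rps3a1 (19.8%), Rps23 (29.5%) and Rps16 (45.2%). For Rps13, a protein of the 40S body, the row averaged 98.4 TPM and the pseudogene row Rps13-ps1, whose sequence is 99.6% identical over the whole coding sequence, averaged 2457 TPM. For Rps23, a protein of the decoding centre, the row averaged 1528 TPM and Rps23-ps1 averaged 3650 TPM. The sums of these rows place Rps13 at 11.27 ± 0.07 (SD, n = 3) on the log2(TPM + 1) scale in si-CTL cells at day 0 without rescue, in place of 6.97 ± 0.15 for the row alone. How the authors' quantification divided reads between a gene and its copies was not tested, and changes of the rows below 50% are uncertain.

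**Figure D2:**
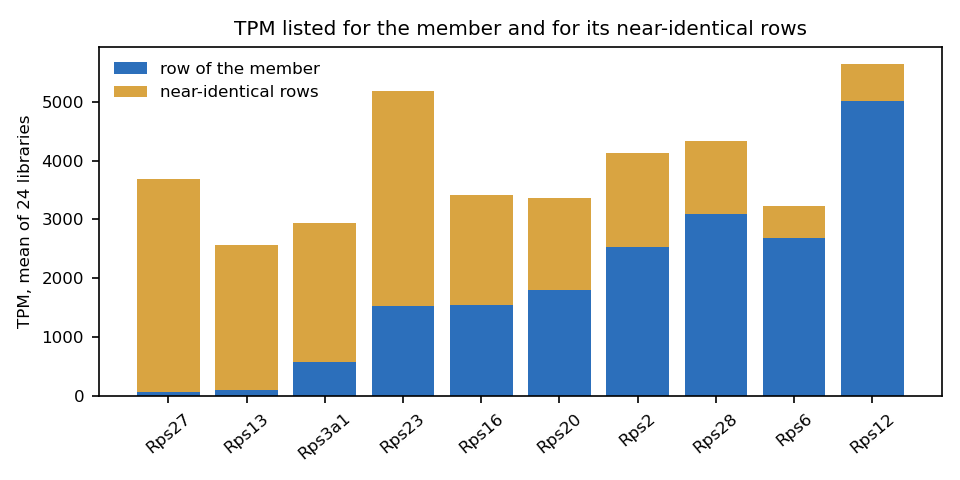
Bars give the TPM listed for each gene's own row (blue) and, stacked on it, for its near-identical rows (yellow), as means of 24 libraries, for the 10 genes whose own row held less than 90% of the sum. The own row makes up 1.71% of the bar for Rps27 and 88.6% for Rps12.

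Rps27 had the smallest share, and its sequences are shown for that reason. Rps27 (chr3:90212522-90213651, minus strand, GRCm38) encodes a zinc-binding protein of the 40S subunit. Rps27rt (chr9:114982366-114982739, minus strand), annotated as a protein-coding gene, has a coding sequence of 252 bases with 0 differences from that of Rps27. Rps27l (chr9:66946086-66949516, plus strand), the paralog that is known as a target of p53, differs from Rps27 at 60 of 252 bases (76.2% identity). The first 90 bases of the 3 coding sequences, from gencode vM21, show this, with capitals at the bases that differ from Rps27.
Rps27: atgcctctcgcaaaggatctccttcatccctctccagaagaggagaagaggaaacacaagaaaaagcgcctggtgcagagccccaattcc
Rps27rt: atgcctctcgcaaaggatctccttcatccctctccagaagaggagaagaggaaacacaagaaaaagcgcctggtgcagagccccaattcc
Rps27l: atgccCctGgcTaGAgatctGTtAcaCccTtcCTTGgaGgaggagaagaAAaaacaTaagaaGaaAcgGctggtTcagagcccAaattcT

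Rps27rt averaged 3629 TPM over the 24 libraries, against 62.2 TPM for Rps27 and 1009 TPM for Rps27l. The row of Rps27 was unstable within groups. In si-CTL cells at day 0 without rescue its log2(TPM + 1) was 4.66, 4.79 and 6.57, and in si-Rsl24d1 cells 6.38, 5.93 and 4.71, so that the groups overlapped. With Rps27rt added, the same libraries stood at 11.42, 11.57 and 11.56 in si-CTL and at 11.68, 11.68 and 11.77 in si-Rsl24d1 cells, and did not overlap.

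The question of the day 0 comparison is what the loss of a 60S assembly factor does to the mRNAs of the other subunit. In ESCs without rescue, 7 small subunit mRNAs rose and 1 fell under si-Rsl24d1 (adjusted p below 0.01, limma with Benjamini-Hochberg adjustment over 16447 genes), where 14.3% of all tested genes rose and 16.1% fell. In value 28 of the 30 were higher, with a median log2 fold change of 0.16 against -0.01 over all tested genes. By the same measure the 49 large subunit genes had a median of 0.10, with 5 higher and 4 lower past the test. With median of ratios scaling 1 of the 30 passed, Rps27l, although the median stayed at 0.16. Without library 1 of si-CTL 3 passed, and 4 passed without library 1 or library 3 of si-Rsl24d1. At an unadjusted p below 0.05, for which no share of all genes is given here, the count was 17. With a change of more than 1.8-fold required as well, 0 of the 30 passed with limma, at the adjusted or the unadjusted p, where 4.18% of all genes passed the adjusted p and the fold.

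Rps27l changed most. Its log2(TPM + 1) was 9.63, 9.70 and 9.78 in si-CTL and 10.28, 10.19 and 10.31 in si-Rsl24d1 cells. All 3 depleted libraries lay above all 3 controls, as means of 832 and 1227 TPM (log2 fold change 0.56, SE 0.08, adjusted p = 5.4e-06 from limma). Under every alternative tried the rise was between 0.52 and 0.60 and stayed past the threshold. The 18 other p53 targets read beside it, a list without Rps27l, had a median log2 fold change of 1.22 with 16 higher past the test, and their summed TPM was 1162 to 1242 in si-CTL and 2587 to 2698 in si-Rsl24d1 cells. Cdkn1a, which encodes the cell cycle inhibitor p21, rose by 1.18 (SE 0.05, adjusted p = 1.7e-13 from limma).

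Rps28, a small protein near the mRNA exit channel, had the next largest rise past the test. Its libraries were at 11.31, 11.47 and 11.48 in si-CTL and at 11.70, 11.76 and 11.84 in si-Rsl24d1 cells, without overlap (log2 fold change 0.35, SE 0.09, adjusted p = 0.0028 from limma). Its row held 71.7% of the sum with its near-identical rows, and the sum rose by 0.40 (adjusted p = 3.0e-04 from limma). Rps27a was at 11.87, 11.99 and 12.04 in si-CTL and at 12.20, 12.18 and 12.20 in si-Rsl24d1 cells (log2 fold change 0.23, SE 0.06, adjusted p = 0.0040 from limma). Rack1 was at 11.46, 11.50 and 11.51 against 11.64, 11.62 and 11.69 (log2 fold change 0.16, SE 0.03, adjusted p = 1.7e-04 from limma). Neither pair of groups overlapped. The others that rose were Rpsa, which is also known as the laminin receptor, Rps14, a platform protein, and Rps18, a head protein.

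Rps13 was the gene that fell, from 6.90, 6.86 and 7.13 in si-CTL to 6.38, 6.64 and 6.81 in si-Rsl24d1 cells (log2 fold change -0.36, SE 0.10, adjusted p = 0.0088 from limma). With its near-identical rows added the value turned to 0.06 (adjusted p = 0.53 from limma). With such rows added for all 30 genes, 9 of the 30 rose and 1 had a value below 0, and Rps6, the target of S6 kinase, and Rps23 joined those that rose (0.21 and 0.26, adjusted p = 6.4e-05 and 0.0011 from limma). Fau, made as a fusion of a small subunit protein to a ubiquitin-like protein, was at 10.50, 10.60 and 10.64 in si-CTL and at 10.51, 10.54 and 10.63 in si-Rsl24d1 cells, which overlapped (log2 fold change -0.02, adjusted p = 0.77 from limma).

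**Figure D3:**
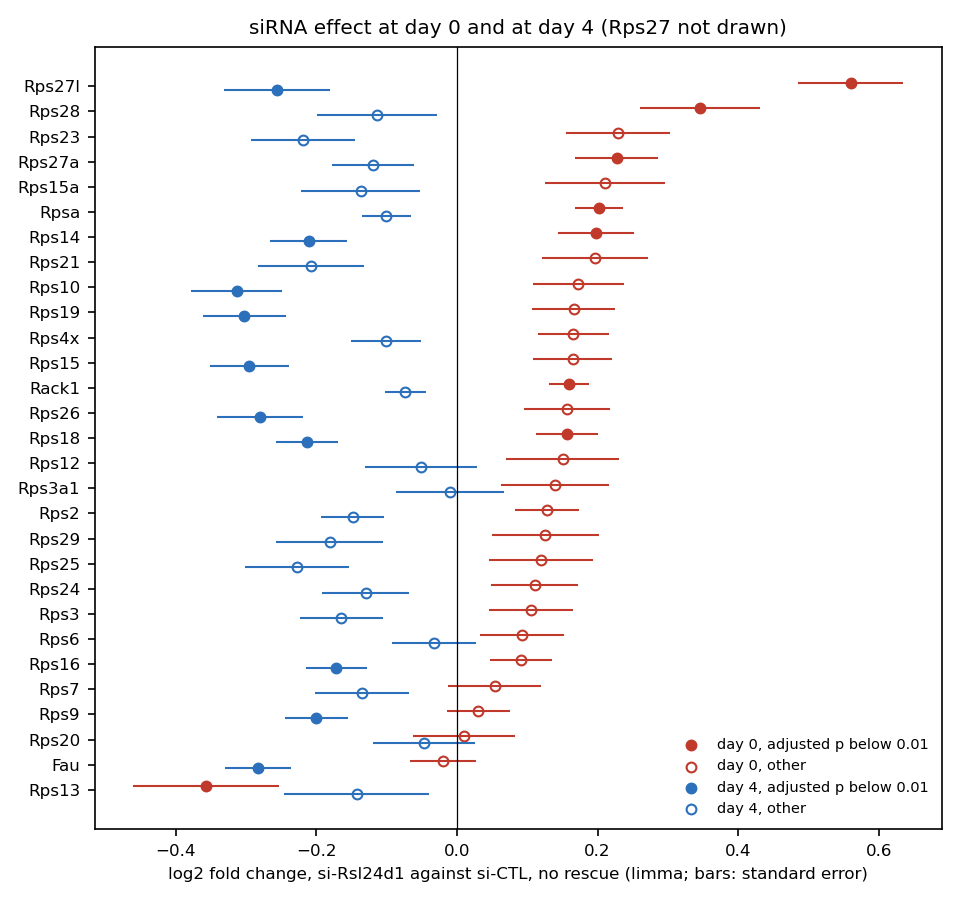
Points give each gene's limma log2 fold change of si-Rsl24d1 over si-CTL, both without rescue, at day 0 (red) and at day 4 (blue), with bars for the standard error, and filled points have an adjusted p below 0.01. Rps27 is not drawn because of its spread. Rps27l has the largest value at day 0 (0.56), and every gene drawn lies below 0 at day 4.

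With rescue the day 0 effect of the siRNA was smaller in value, with a median of 0.08 over the 30 genes against 0.00 over all tested genes. Of the 30 only Rps27l passed the test (1 higher, where 8.1% of all genes were higher and 5.64% lower, and 1.36% passed both thresholds). It was at 9.82, 9.87 and 10.03 in si-CTL and at 10.35, 10.29 and 10.06 in si-Rsl24d1 cells with rescue, without overlap (log2 fold change 0.32, SE 0.08, adjusted p = 0.0038 from limma). Scaling by the median of ratios gave a limma adjusted p of 0.048, and the call was also lost without library 1 or 2 of either group, and the adjusted p over all alternatives ran from 5.8e-04 to 0.065. The p53 targets summed to 1072 to 1144 TPM and 1761 to 1913 TPM in these groups. The effect of the siRNA was not shown to differ between unrescued and rescued cells for any of the 30 (interaction, 0 passed with limma). By the same adjusted p 0.906% of all genes were higher and 1.18% lower, and 0.128% passed both thresholds. The count was 2 at an unadjusted p below 0.05, for which no share of all genes is given here. For Rps27l the interaction was -0.24 (SE 0.11, adjusted p = 0.25 from limma).

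Within si-Rsl24d1 cells at day 0, 1 gene of 30, Fau, passed the test between rescued and unrescued cells. Of all genes 3.06% were higher, 12.2% lower, and 0.28% passed both thresholds, so 1 of 30 is about the share of all genes that were higher. Fau was at 10.51, 10.54 and 10.63 without and at 10.85, 10.75 and 10.70 with rescue (log2 fold change 0.20, SE 0.05, adjusted p = 0.0039 from limma). The call was lost without library 1 or 2 of either group, and 3 of the 30 passed without library 3 of the rescued group. Median of ratios scaling moved the split of all genes from 504 higher and 2007 lower to 1321 higher and 1220 lower, and the members' median from 0.09 to 0.22. Rps27l was at about the same mean in both, 10.26 and 10.23 (log2 fold change -0.03, SE 0.08, adjusted p = 0.79 from limma), where the p53 targets had a median of -0.65 and 16 of 18 were lower. In si-CTL cells 0 of the 30 differed between rescue and no rescue at the adjusted p of limma. By that measure 0% of all genes were higher, 0.0122% lower and 0% passed both thresholds. The count was 21 at an unadjusted p below 0.05, for which no share of all genes is given here to set it against. In value 29 of the 30 were higher, with a median of 0.16 against -0.12 over all genes, and of 0.31 against -0.01 with median of ratios scaling.

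The comparison of day 4 with day 0 asks how these mRNAs differ after 4 days in RA. In si-CTL cells without rescue, from day 0 to day 4, 22 small subunit mRNAs rose and 2 fell, where 24.1% of all tested genes rose and 36.7% fell. The median log2 fold change was 0.37 against -0.10 over all genes. The 49 large subunit genes had a median of 0.29 and 34 rose, whereas the 33 factors that assemble the small subunit had a median of -0.57 and 31 fell. With median of ratios scaling the split of all genes went from 3969 higher and 6041 lower to 5065 in each direction, and 22 of the 30 rose and 0 fell, with a median of 0.51. No gene of the 30 passed 1.8-fold, with limma's adjusted p below 0.01 or with an unadjusted p below 0.05. With the adjusted p 15% of all genes passed 1.8-fold. Of the 30, 26 had an unadjusted p below 0.05, for which no share of all genes is given here.

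Rps19, a head protein and the gene mutated most often in Diamond-Blackfan anaemia, rose most. It was at 10.60, 10.67 and 10.66 at day 0 and at 11.30, 11.29 and 11.27 at day 4, as means of 1599 and 2497 TPM (log2 fold change 0.64, SE 0.06, adjusted p = 9.6e-09 from limma). Rps14, whose loss underlies the anaemia of the 5q- syndrome, was at 10.93, 11.06 and 11.09 at day 0 and at 11.64, 11.67 and 11.67 at day 4 (log2 fold change 0.63, SE 0.05, adjusted p = 3.7e-09 from limma). Rps23 was at 10.21, 10.29 and 10.36 at day 0 and at 10.82, 10.86 and 10.86 at day 4 (log2 fold change 0.56, SE 0.07, adjusted p = 1.4e-06 from limma). In each of these the day 4 libraries lay above all day 0 libraries. The rise was 0.44 for Fau, 0.35 for Rps27l and 0.29 for Rack1, each past the test.

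Rps2, a protein of the mRNA entry channel, went the other way. It fell from 11.40, 11.50 and 11.48 to 11.25, 11.25 and 11.26 (log2 fold change -0.20, SE 0.05, adjusted p = 5.0e-04 from limma). The value was -0.23 with near-identical rows added (adjusted p = 5.0e-05 from limma), and -0.06 with median of ratios scaling, where the call was lost (adjusted p = 0.47 from limma). Rps13 fell by 0.51 as a row (adjusted p = 1.9e-04 from limma), but had a value of 0.18 with its near-identical rows (adjusted p = 0.019 from limma). Rps27, at -0.51 as a row (SE 0.80, adjusted p = 0.59 from limma), rose by 0.64 with them (adjusted p = 5.0e-06 from limma). With such rows added 24 of the 30 rose and 1 fell. Rps12, Rps9, Rps3a1, Rps28 and Rps29 did not pass the test, with values from 0.04 for Rps9 to 0.20 for Rps28.

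In si-Rsl24d1 cells without rescue, day 4 differed from day 0 for fewer of the 30. There 6 rose and 3 fell, where 29.4% of all genes rose, 26.4% fell and 14.1% passed both thresholds, and the median was 0.06 against 0.02 over all genes. With median of ratios scaling 2 rose and 2 fell. Rps20, a head protein that is ubiquitinated on collided ribosomes, was at 10.60, 10.43 and 10.54 at day 0 and at 11.14, 10.84 and 10.99 at day 4 (log2 fold change 0.47, SE 0.07, adjusted p = 1.3e-05 from limma). Rps6 rose by 0.32 (adjusted p = 1.0e-04 from limma) and Rps14 by 0.23 (adjusted p = 0.0012 from limma). Rps2 was at 11.61, 11.54 and 11.62 at day 0 and at 11.22, 11.04 and 11.06 at day 4 (log2 fold change -0.48, SE 0.05, adjusted p = 1.4e-08 from limma). Rps27l was at 10.28, 10.19 and 10.31 at day 0 and at 9.98, 9.71 and 9.71 at day 4 (log2 fold change -0.46, SE 0.08, adjusted p = 2.1e-05 from limma). Rps9 fell by 0.19 (adjusted p = 0.0010 from limma). For these 6 genes, picked for passing the test on the same libraries, the groups did not overlap.

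With rescue, from day 0 to day 4, the median difference of the 30 genes was 0.05 in si-CTL cells (18 higher and 12 lower) and 0.01 in si-Rsl24d1 cells (15 higher and 15 lower), against 0.12 and 0.06 over all genes. The summed TPM of si-CTL cells with rescue averaged 72608 at day 0 and 73542 at day 4 (n = 3). The difference between these changes was not tested.

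At day 4 without rescue, 10 of the 30 were lower in si-Rsl24d1 than in si-CTL cells, where 6.04% of all genes were lower and 24.9% higher, and 1.63% passed both thresholds. All 30 were lower in value, with a median of -0.16 against 0.13 over all genes. With median of ratios scaling, which moved the median of all genes from 0.13 to 0.00 and their split of calls from 4094 higher and 993 lower to 2416 higher and 2393 lower, the members' median was -0.32 and 16 were lower. The 49 large subunit genes had a median of -0.20 and 20 were lower. The count moved with single libraries of the si-Rsl24d1 group and was 22 without library 1, 6 without library 2 and 5 without library 3. A fit of these 2 groups alone gave 0. In the fit of all groups 19 had an unadjusted p below 0.05, for which no share of all genes is given here.

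Rps10, a head protein that also marks collided ribosomes, was at 11.72, 11.70 and 11.64 in si-CTL and at 11.54, 11.30 and 11.28 in si-Rsl24d1 cells (log2 fold change -0.31, SE 0.06, adjusted p = 7.9e-04 from limma). Rps19 was at 11.30, 11.29 and 11.27 against 11.11, 10.95 and 10.89 (log2 fold change -0.30, SE 0.06, adjusted p = 5.1e-04 from limma). Rps15, whose tail reaches the decoding centre, was at 11.80, 11.78 and 11.80 against 11.63, 11.47 and 11.39 (log2 fold change -0.30, SE 0.06, adjusted p = 3.9e-04 from limma). In all 3 genes library 1 of si-Rsl24d1 lay nearest to the controls, and the groups did not overlap. Fau was at 11.05, 11.01 and 10.99 against 10.78, 10.74 and 10.68 (log2 fold change -0.28, SE 0.05, adjusted p = 1.3e-04 from limma). Rps27l was at 10.08, 10.06 and 10.01 against 9.98, 9.71 and 9.71 (log2 fold change -0.26, SE 0.08, adjusted p = 0.0098 from limma), a call that 7 of 17 alternatives kept. It was lost without any 1 of the libraries other than library 1 of si-Rsl24d1, with the replicate block, without the filter, without the intensity trend, with TPM rescaled without mitochondrial and short RNAs, and in a fit of the 2 groups alone (limma adjusted p up to 0.059). Rack1 did not pass the test (-0.07, adjusted p = 0.045 from limma), and neither did Rps27 (-0.12, adjusted p = 0.92 from limma). Beside these differences, the si-Rsl24d1 group had higher markers of extraembryonic endoderm (8 of 8 tested higher, summed TPM 536 to 645 against 372 to 413) and of fibroblasts and mesenchyme (5 of 7 higher, at least 808 against at most 414 TPM). The summed TPM of the other lists also did not overlap, at 49.4 to 60.7 against 37.3 to 37.7 for neural markers (2 of 5 higher), at 72.4 to 79.8 against 58.1 to 65.4 for RA targets (5 of 9 higher), and at 6335 to 7126 against 7222 to 7418 for pluripotency markers (2 higher and 1 lower of 10). Mitochondrial transcripts took 7.01% to 8.57% of TPM in the si-Rsl24d1 and 6.42% to 6.81% in the si-CTL group. The part of any of these in the small subunit values was not tested. With rescue 0 of the 30 differed at day 4 at the adjusted p of limma. By that measure 2.33% of all genes were higher, 3.53% lower and 0.73% passed both thresholds. The count was 2 at an unadjusted p below 0.05, for which no share of all genes is given here. The median was 0.01 against -0.04 over all genes. Median of ratios scaling moved the split of all genes there from 384 higher and 581 lower to 603 and 418.

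The difference between the day 4 and the day 0 effect of the siRNA was itself past the test for 18 of the 30 (interaction, all more negative at day 4, where 8.83% of all genes were lower, 22.1% higher and 5.61% passed both thresholds). The median interaction was -0.30 against 0.14 over all genes, and -0.33 for the large subunit genes. It was largest for Rps27l, at -0.82 (SE 0.11, adjusted p = 6.1e-06 from limma), followed by Rps10 at -0.49 (SE 0.09, adjusted p = 2.9e-04 from limma) and Rps19 at -0.47 (SE 0.08, adjusted p = 1.8e-04 from limma). The same 3 had day 0 effects of 0.56, 0.17 and 0.17. With median of ratios scaling, where the split of all genes went from 3630 higher and 1452 lower to 2519 and 2173, the same 18 genes passed. The p53 targets had a median interaction of -0.96, and 15 of 18 were lower.

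The levels of Rps27l and Rps27 were also read as a ratio within each library. The ratio of the rows, as TPM, ran from 6.43 to 81.3 in the 12 si-CTL and from 6.16 to 93.2 in the 12 si-Rsl24d1 libraries. The mean log2 difference between them within day and rescue was -0.13 (two-sided exact permutation test over 160000 arrangements within the 4 combinations of day and rescue, p = 0.76). This test carries the spread of the Rps27 row. With the TPM of Rps27rt added to that of Rps27, an alternative chosen after the values had been seen, the ratio was 0.289, 0.272 and 0.290 in si-CTL and 0.378, 0.357 and 0.365 in si-Rsl24d1 cells at day 0 without rescue. With rescue it was 0.275, 0.270 and 0.269 against 0.317, 0.319 and 0.324. At both the depleted libraries lay above all controls. At day 4 it was 0.234, 0.227 and 0.239 against 0.224, 0.239 and 0.249 without rescue, and 0.248, 0.255 and 0.253 against 0.248, 0.245 and 0.245 with rescue, so that the groups overlapped without rescue, and with rescue the si-Rsl24d1 libraries lay just below the si-CTL libraries. The mean log2 difference was 0.15 (exact permutation test, p = 0.0029), made up of 0.37 and 0.24 at day 0 and of 0.02 and -0.03 at day 4.

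**Figure D4:**
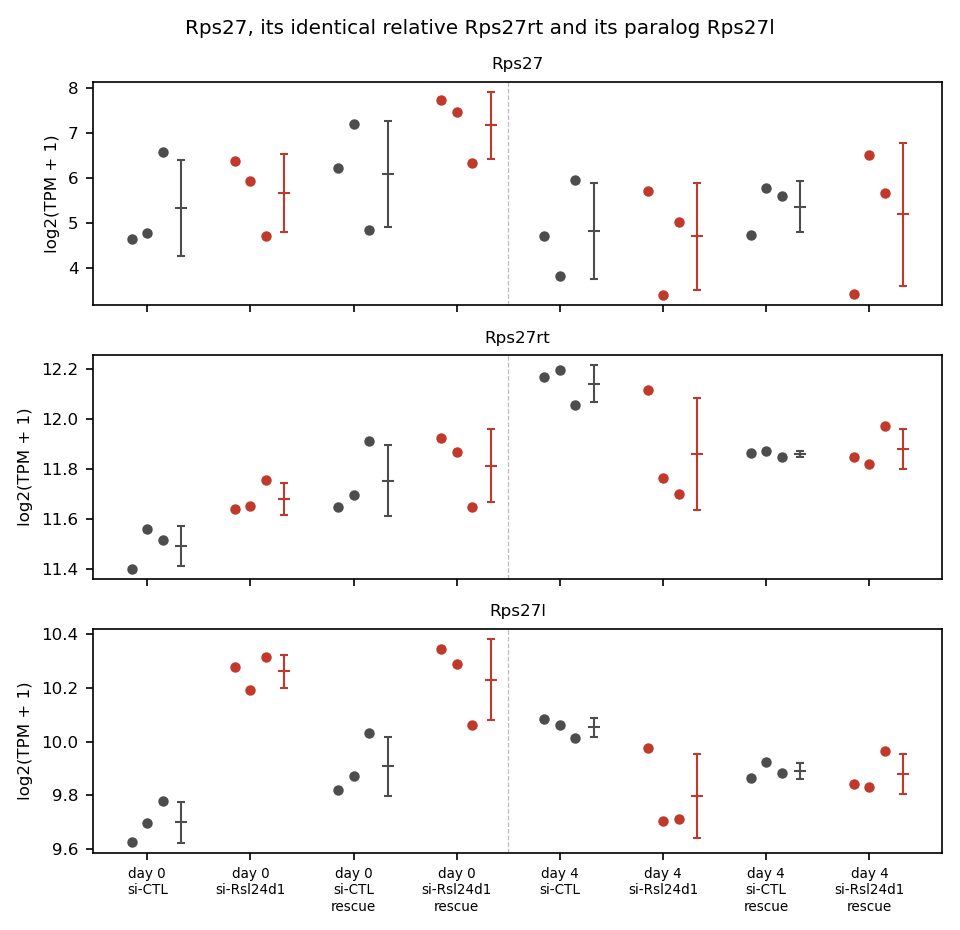
Points are single libraries, grey for si-CTL and red for si-Rsl24d1, and the mark beside them is the mean with its SD (n = 3), on the log2(TPM + 1) scale with a separate axis for each gene. The Rps27 row spans 3.41 to 7.73, while Rps27rt stays between 11.40 and 12.20 and Rps27l between 9.63 and 10.35.

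The balance between the subunits was described by the summed TPM of the 30 small subunit genes over that of 49 large subunit genes, a ratio that does not depend on the rest of the library. It was 0.646 to 0.655 in the 12 si-CTL libraries and 0.658 to 0.678 in the 12 si-Rsl24d1 libraries, and the ranges were apart. At day 0 without rescue it was 0.653, 0.651 and 0.652 in si-CTL and 0.676, 0.671 and 0.678 in si-Rsl24d1 cells. When each of the 79 genes was left out in turn the ranges stayed apart for 59 and did not for 20. Adding the 4 small subunit genes outside the set gave 0.738 to 0.748 in si-CTL and 0.751 to 0.773 in si-Rsl24d1 libraries, also apart. The difference of the mean log2(TPM + 1) of the subunits overlapped between the siRNAs over all libraries (0.11 to 0.21 in si-CTL and 0.14 to 0.28 in si-Rsl24d1 libraries). At day 0 the siRNA groups were apart, at 0.12 to 0.19 in si-CTL and 0.23 to 0.27 in si-Rsl24d1 libraries without rescue. With rescue they were at 0.11 to 0.21 and 0.23 to 0.28, also apart, and at day 4 they overlapped. This mean gives the Rps27 row the same weight as any other small subunit row. With near-identical rows added on both sides the ranges of the summed TPM ratio were 0.633 to 0.651 and 0.635 to 0.671 and overlapped. In that form the si-Rsl24d1 libraries still lay above the si-CTL libraries at day 0, at 0.664 to 0.671 against 0.633 to 0.634 without and at 0.653 to 0.660 against 0.635 to 0.640 with rescue, and overlapped with them at day 4. As a share of the summed ribosomal protein TPM, 2 of the 30 (Rps27a and Rps28) had a higher mean under si-Rsl24d1 in all 4 combinations of day and rescue and 1 (Rps9) a lower one, beside 1 higher and 5 lower of the 49 large subunit genes.

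**Figure D5:**
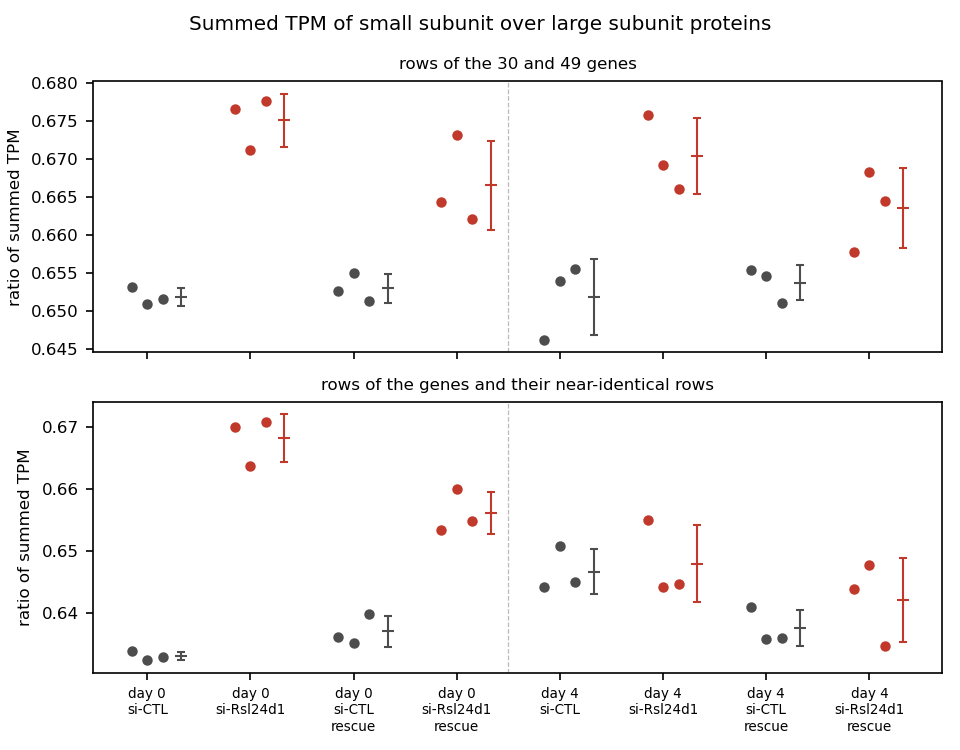
Points are single libraries, grey for si-CTL and red for si-Rsl24d1, with the mean and SD (n = 3) beside them, and the vertical axis is the summed TPM of small over that of large subunit genes and does not start at 0. In the upper panel, from the genes' own rows, the si-CTL libraries end at 0.655 and the si-Rsl24d1 libraries begin at 0.658, while in the lower panel, with near-identical rows added, they overlap at day 4.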

How the data were processed

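RNA-seq of 24 mouse CGR8 ESC libraries was analysed. The authors aligned and quantified the reads, and the deposited values are log2 of TPM with 1 added, per gene symbol. The paper's methods name an earlier Salmon and gencode vM20 on GRCm38, while the submitters' processing notes name STAR 2.7.8a, Salmon 1.4.0 and GRCh38. The sources also conflict on poly-A or total RNA libraries. Of 54242 rows, 52259 are in gencode vM21.

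Genes with a mean of at least 0.5 entered a limma fit (version 3.58.1, R 4.3.3, 8 group means, intensity trend, two-sided, Benjamini-Hochberg adjustment), after a check on simulated data. The thresholds were an adjusted p of 0.01 and a 1.8-fold change. Fold changes are on the log2(TPM + 1) scale. The submitters call the 3 libraries of a group independent without saying what was repeated, so p-values measure the spread between these libraries, which may be technical in part. No library duplicated another (highest correlation 0.991). The members and lists were chosen with earlier results of these data known. Fold changes were named for members past both thresholds, for the 3 largest rises and 3 largest falls past the adjusted p, and for Rps27, Rps27l, Rack1 and Fau. Most genes whose groups are said not to overlap were thus picked by a test on the same libraries. Their lack of overlap is description and adds no support to the calls. The share of all genes without overlap is not given. Counts at an unadjusted p below 0.05 also stand without the share of all genes, and cannot be read as particular to the members. Rsl24d1 and Cdkn1a were named outside the members. Rps27rt and members named for their near-identical rows or for not passing were chosen after their values were seen. Alternatives were another number added, filter, scaling, variance model, sample set, replicate block and left-out libraries, and named pseudogene rows. Adding near-identical rows, or Rps27rt, was chosen after seeing the data. Some further genes read beside the members are not reported here.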

Additional observations from a re-analysis of the deposited data

Results flagged for a closer look

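For 18 of the 30 small subunit mRNAs, the effect of the siRNA without rescue differed between day 0 and day 4 by the interaction term of limma. The difference was -0.82 for Rps27l, -0.49 for Rps10 and -0.47 for Rps19 on the log2(TPM + 1) scale. The Rsl24d1 mRNA itself differed between the siRNA groups at day 0 (-1.95) and not measurably at day 4 (-0.04, adjusted p = 0.66 from limma). The groups of 3 libraries were too small for a test of single libraries that stand apart.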

How the results depend on the processing

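Of the counts of genes past the threshold and the Rps27l to Rps27 ratio under the alternatives, 157 kept their side or stayed within 1.5 times and 32 did not. For si-Rsl24d1 against si-CTL at day 0 without rescue the 8 members became 4 without a filter, 1 with median of ratios scaling, 5 without the intensity trend, 4 with only the groups compared, and 3 to 7 with 1 library left out. With rescue the 1 member became 0 without a filter, with that scaling or with only the groups compared, 2 with named pseudogene or near-identical rows added, and 0 to 1 with 1 library left out. At day 4 without rescue the 10 became 16 with that scaling, 0 with only the groups compared, and 5 to 22 with 1 library left out. Rescue against none in si-Rsl24d1 cells gave 0 with only the groups compared and 0 to 3 with 1 library left out. For day 4 against day 0 the 24 of si-CTL ran from 22 to 25 over all alternatives and stayed at 24 with 1 library left out, and the 9 of si-Rsl24d1 became 4 with that scaling, 3 with only the groups compared and 6 to 11 with 1 library left out. The 18 of the interaction with day became 11 with only the groups compared and 13 to 25 with 1 library left out. The counts of 0 stayed at 0. The cause of these changes was not tested, apart from the added rows and fewer libraries.

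The Rps27l to Rps27 difference of -0.13 turned to 0.15 with Rps27rt added and ran from -0.392 to 0.0429 with 1 replicate number left out. Rps13 turned to 0.0578 and 0.0574 (day 0 siRNA effect) and to 0.182 (day 4 against day 0, both) with named pseudogene and near-identical rows. Rps27 turned to 0.64 (day 4 against day 0) with near-identical rows, and with 1 library left out ran from -1.07 to 0.104 there, from -0.0166 to 0.952 for the siRNA at day 0 and from -0.623 to 0.532 at day 4, all without rescue. In the same way Fau ran from -0.0603 to 0.0107 at day 0, and the members' median from -0.00406 to 0.0421 at day 4 with rescue and from -0.00177 to 0.104 for day 4 against day 0 in si-Rsl24d1 cells.

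Same-numbered libraries did not deviate together (mean correlation -0.0173 over 84 pairs). With the replicate number as a block, 6, 1, 9 and 0 members passed for the siRNA (day 0, day 0 with rescue, day 4, day 4 with rescue), 1 and 0 for rescue, 24 and 8 for day 4 against day 0, and 17 and 0 for the interactions, and the ratio differed by -0.13 (exact permutation test, p = 0.71). Read depth, which sets the counting error, is unknown.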
